A study of Mus musculus with 48 samples.

Results

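Neurog2, Neurod1, Neurod2, Neurod6, Tbr1, Eomes, Bcl11b, Fezf2 and Bhlhe22 are 9 transcription factors of the excitatory (glutamatergic) neuron lineage, and their RNA was followed in mouse libraries labelled as astrocytes. The members were taken by symbol, and all 9 were found among the 24421 symbols of each of the 6 deposited tables. They were named with the age values of these libraries already known, so the values by age are given as a description and were not tested. The comparison of genotypes at P28 uses other libraries and was tested.

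The series holds 48 RNA-seq libraries in 15 groups from cortex, hippocampus and olfactory bulb. Astrocytes at postnatal day 1, 7 and 14 (P1, P7, P14) gave 28 libraries, 3 in each group except cortex P14 with 4. At P28, animals labelled Gabbr1 cKO, in which the gene for a GABA-B receptor subunit is conditionally removed, were set beside animals labelled Gabbr1 control. The P28 groups held 4 control and 4 cKO libraries for cortex, 2 and 4 for hippocampus, and 3 and 3 for olfactory bulb. The label tamoxifen is carried by each hippocampal and olfactory bulb library of P28, control and cKO alike, and by 3 of the 8 cortical ones, namely control replicates 3 and 4 and cKO replicate 4. The Cre driver, the way the astrocytes were isolated after dissociation and the genotype of the P1 to P14 animals are not given in the sources used here. The labels do not say that replicates came from separate animals, so the p-values measure the spread between these libraries, which may in part be technical.

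The astrocyte label was checked against 12 astrocyte genes, which were detected in each group. Their summed normalized count went from 23751 to 31273 per library at P1 to 523907 to 580490 at P14 in cortex. In hippocampus it went from 14566 to 17078 up to 446470 to 479859. In olfactory bulb it went from 5786 to 7971 up to 146442 to 161784. A normalized count is the read count of a gene divided by a size factor of the library. Markers of neurons were present too: 14 pan-neuronal genes summed to 15498 to 21888 per cortical library at P1 and to 2254 to 2651 at P14. Hippocampal libraries held 20171 to 27189 at P1 and 3252 to 3598 at P14, and those of olfactory bulb 32515 to 35520 and 5673 to 7658. None of the 14 genes was at 0 in any of these groups, and in olfactory bulb at P1 their sum was larger than that of the astrocyte genes in each library. In bulk RNA, fewer cells of a type and less RNA per cell cannot be told apart, and the part of neuronal RNA in the values below was not tested. Libraries held 1773226 to 15008466 reads in genes. Hippocampus P28 cKO replicate 2 and olfactory bulb P28 control replicate 2 stood apart, with 0.594% and 0.476% of reads on the ribosomal gene Rn45s against 13.7% to 38.0% elsewhere.

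In the embryonic cortex, excitatory neurons arise through a relay of transcription factors. The basic helix-loop-helix (bHLH) factor Neurog2 starts the program in radial progenitors, Eomes (Tbr2) marks the intermediate progenitors, and the bHLH factors Neurod1, Neurod2 and Neurod6 act as cells leave the cycle and mature. Tbr1, Bcl11b (Ctip2), Fezf2 and Bhlhe22 then help to set the identity of postmitotic neurons, and Eomes and Tbr1 also mark the mitral and tufted cells of the olfactory bulb. Neurod1, a factor that binds E-box DNA, is also a known driver of neuron formation in the adult dentate gyrus of the hippocampus. Astrocytes descend from the same radial progenitors once neurogenesis gives way to gliogenesis.

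The upstream DNA of 3 members is shown because bHLH members of the set bind E-boxes. A link between E-boxes and the values by age was not tested. Each window is the 250 bases before the gene start, read 5′ to 3′ on the strand of the gene from RefSeq (GRCm38.p6), with each CANNTG, the general E-box, in capitals. The windows are chr11:98329646-98329895 on the minus strand for Neurod2, chr6:55681264-55681513 on the minus strand for Neurod6, and chr9:118477939-118478188 on the plus strand for Eomes.
Neurod2: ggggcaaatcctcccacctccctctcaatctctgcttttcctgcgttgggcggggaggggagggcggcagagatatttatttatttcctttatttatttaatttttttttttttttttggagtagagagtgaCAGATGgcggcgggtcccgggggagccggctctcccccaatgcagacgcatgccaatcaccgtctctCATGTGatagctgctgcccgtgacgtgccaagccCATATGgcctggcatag
Neurod6: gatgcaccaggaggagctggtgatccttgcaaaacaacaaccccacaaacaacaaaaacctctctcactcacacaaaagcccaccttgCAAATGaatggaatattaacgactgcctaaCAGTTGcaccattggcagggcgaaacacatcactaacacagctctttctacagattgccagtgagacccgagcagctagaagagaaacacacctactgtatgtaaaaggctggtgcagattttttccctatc
Eomes: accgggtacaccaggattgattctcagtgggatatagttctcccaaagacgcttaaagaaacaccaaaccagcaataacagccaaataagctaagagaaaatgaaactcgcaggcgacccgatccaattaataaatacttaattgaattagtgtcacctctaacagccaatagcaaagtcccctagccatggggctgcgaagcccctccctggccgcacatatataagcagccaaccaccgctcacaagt

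A window was found for 8 of the 9 members. The gene starts behind the windows are not all those of the GENCODE spans given below. By those spans the windows of Tbr1 and Fezf2 lie inside the gene, and those of Neurod1 and Bcl11b reach well into it. CANNTG, which reads the same on both strands, was in 4 of these 8 windows (Neurod1, Neurod2, Neurod6 and Tbr1) and in 66.2% of all 32851 windows of that length. The form CAGATG, bound by Neurod and Neurog factors and contained in CANNTG, was searched on both strands and was in 1 of the 8, Neurod2 at -118 to -113 from the start, and in 14.4% of all windows. The form CAGCTG, also contained in CANNTG, was in none of the 8 and in 13.0% of all windows, and the T-box core sequence TCACACCT was in none and in 1.12%, both strands read. A match is a description of the letters and marks no binding site.

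By GENCODE M21 on GRCm38 (mm10), Neurog2 lies at chr3:127633135-127635631, Neurod2 at chr11:98325415-98329648, Neurod6 at chr6:55677822-55681263, Tbr1 at chr2:61802930-61814114, Bcl11b at chr12:107910403-108003602, Fezf2 at chr14:12342094-12348189 and Bhlhe22 at chr3:18054174-18057517, none of them overlapping another annotated gene. Neurod1 (chr2:79452521-79456751) overlaps Cerkl on its own strand and the long noncoding RNA gene Gm26755 on the other, and Eomes (chr9:118478212-118486132) overlaps the antisense gene Gm33460. Whether reads were counted by strand is not given in the sources used here, so reads of these neighbours could not be told from those of Neurod1 and Eomes.

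The members had their highest counts at P1 in each region, lower ones at P7, and by P14 small ones for most members other than Fezf2. The P7 libraries lay below all P1 libraries for 9 of 9 members in each region, as they did for 31.1% (cortex), 25.5% (hippocampus) and 22.6% (olfactory bulb) of all tested genes. The P14 libraries also lay below all P1 libraries for 9 of 9 members in each region, against 39.6%, 31.5% and 34.9% of genes in the same order. The members were chosen on these contrasts, so nothing is read from their counts. P14 libraries lay below all P7 libraries for 6, 6 and 7 members in the same order of regions, against 30.7%, 23.5% and 29.5% of genes. The exceptions were Fezf2 in each region, Neurog2 and Eomes in cortex, Neurod6 and Eomes in hippocampus, and Bhlhe22 in olfactory bulb. The shares of genes cover only those with a mean of at least 10 over the table, while all 9 members were counted. Neurog2 and Eomes in cortex and Bhlhe22 in olfactory bulb lie under that mean. The median difference P14 minus P1 over the 9 members on the log2(value + 1) scale was -5.19 (cortex), -5.04 (hippocampus) and -7.12 (olfactory bulb). With members that had 3 reads or fewer in each P14 library set to 3 reads (1, 0 and 5 members), the medians were -5.19, -5.04 and -5.36. Over all tested genes the median was -0.27, -0.29 and -0.24. With TMM scaling in place of the deposited factors the median over all genes in cortex was 0.01, and under quantile normalization, which moves genes by different amounts, it was 0.03 in cortex and -0.03 in hippocampus.

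**Figure D1:**
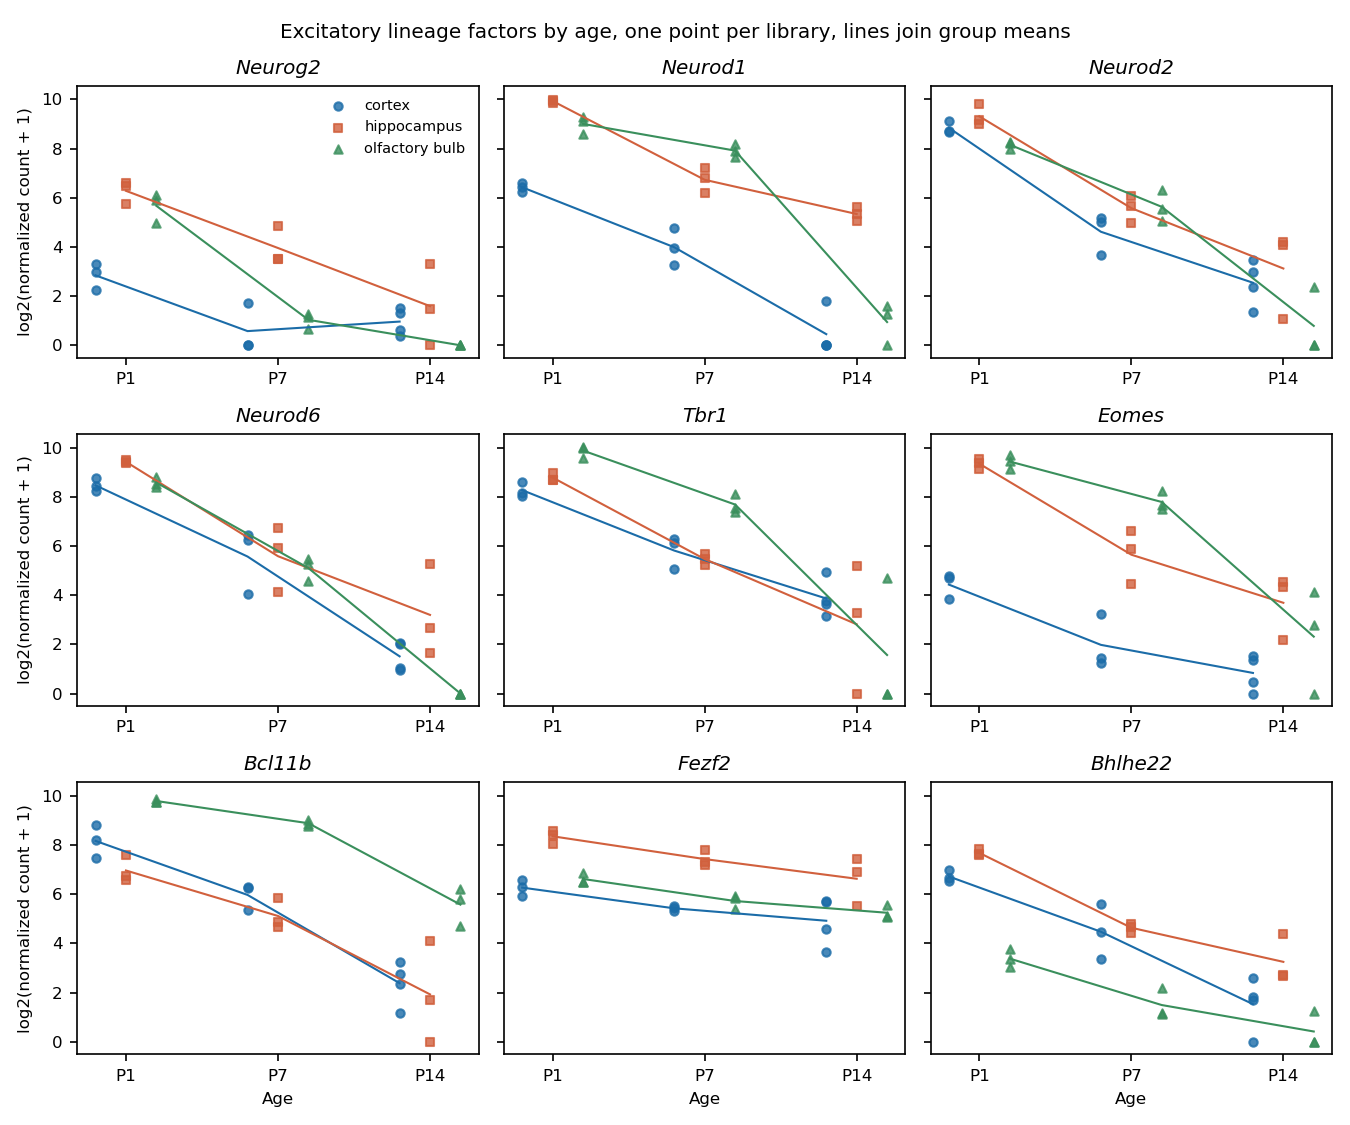
Level of each of the 9 factors at P1, P7 and P14 as log2(normalized count + 1), with 1 point for each library, 1 colour and marker for each region, and lines joining group means. The P1 points lie above all P7 and P14 points of their region in every panel, and Fezf2 has the flattest lines.

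Neurog2, the factor that starts the excitatory program, was the member with the lowest level per kilobase of exon in cortex at P1 and had few reads there later. In hippocampus its normalized counts were 89.4, 94.9 and 53.5 at P1, 10.3, 28.2 and 10.4 at P7, then 0, 8.82 and 1.79 at P14. The P7 values were all below the P1 values and all above the P14 values, and the mean at P14 was 4.46% of that at P1. In olfactory bulb the values were 30.8, 69.1 and 58.5 at P1. All 3 P7 libraries there held 1 or 2 reads, and none of the P14 libraries held a read. Against a floor of 3 reads per library, the P1 mean was at least 8.86-fold higher than that at P14. In cortex the P1 values of 8.81, 3.78 and 6.93 were already low, and P7 and P14 libraries held 0 to 4 reads.

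Eomes, the marker of intermediate progenitors and of olfactory bulb projection neurons, was well covered at P1 in hippocampus and olfactory bulb. Its normalized counts in hippocampus were 655, 745 and 565 at P1, 58.6, 95.7 and 20.8 at P7, then 19.3, 22.1 and 3.58 at P14. The P7 mean was 8.91% of that at P1, and the lowest P7 library lay within the range of the P14 libraries. In olfactory bulb the values were 567, 836 and 699 at P1, 199.7, 300.2 and 178.6 at P7, and 5.96, 0 and 16.7 at P14. There the P7 mean was still 32.3% of that at P1. On the log2(value + 1) scale the step from P7 to P14 (-5.48) was larger than that from P1 to P7 (-1.65). In cortex the values were 24.7, 13.3 and 26.2 at P1, and at P14 each library held 0 to 3 reads.

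Neurod1 was the member with the highest level per kilobase of exon in hippocampus and in olfactory bulb at P1. In hippocampus its normalized counts were 929.5, 1020.2 and 989 at P1, 112, 145 and 71.9 at P7, and 39.8, 32.0 and 48.4 at P14. All 3 P14 libraries held Neurod1 there, with 27 to 37 reads, and the P14 mean was 4.09% of that at P1. In olfactory bulb the values were 383, 630.1 and 559 at P1, 241, 287 and 202 at P7, then 1.99, 0 and 1.39 at P14. The P7 mean was 46.4% of that at P1, and at P14 the 3 libraries together held 2 reads. In cortex the values were 86.7, 73.5 and 96.5 at P1 and 14.4, 8.51 and 26.3 at P7. Only 1 cortical library of P14 held Neurod1, with 4 reads (2.52).

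Neurod2, a bHLH factor of differentiating and mature excitatory neurons, was low in cortex by P7. Its normalized counts there were 559, 413 and 419 at P1, 31.7, 11.6 and 34.9 at P7, then 4.16, 10.1, 6.94 and 1.56 at P14. The 3 ages did not overlap, and the P7 mean was 5.62% of that at P1, the lowest share among cortical members with more than 3 reads in a P7 library. Hippocampus gave 568, 894 and 504 at P1, 30.8, 49.4 and 67.2 at P7, and 1.07, 17.6 and 16.1 at P14. Olfactory bulb gave 253, 297 and 307 at P1 and 32.0, 79.3 and 45.1 at P7, while its P14 libraries held 0, 0 and 3 reads.

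Neurod6 (Nex), expressed in postmitotic excitatory neurons of the forebrain, followed the same order of ages. In cortex its normalized counts were 432, 344 and 297 at P1, 73.9, 15.5 and 86.1 at P7, then 3.03, 3.14, 0.946 and 1.04 at P14. The P14 mean was 0.571% of the P1 mean. In hippocampus the values were 658, 713 and 689 at P1, 16.3, 58.8 and 106 at P7, and 2.15, 37.5 and 5.37 at P14. P14 replicate 2, whose 34 reads carried most of that group, lay inside the P7 range. In olfactory bulb the values were 333, 451 and 369.5 at P1 and 22.7, 42.9 and 38.0 at P7. No read was found in the 3 olfactory bulb libraries of P14, so the P1 mean was at least 64.5-fold higher against a floor of 3 reads per library.

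**Figure D2:**
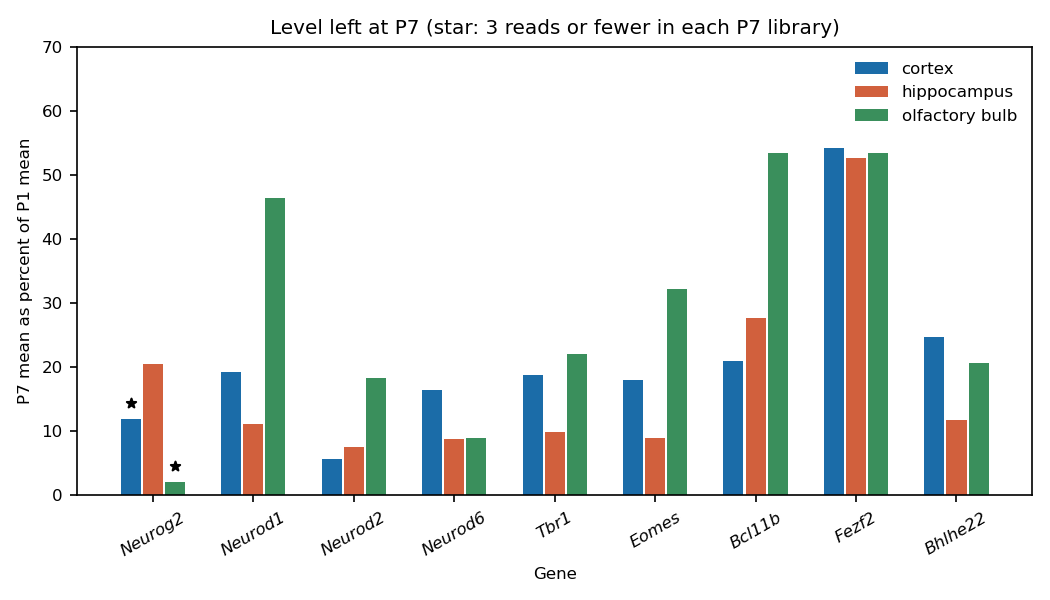
Mean normalized count at P7 as a percent of the mean at P1 for each of the 9 factors, as bars from 0, by region; a star marks groups with 3 reads or fewer in each P7 library, where the bar rests on almost no reads. Fezf2 stands at 54.3% (cortex), 52.7% (hippocampus) and 53.5% (olfactory bulb), and in olfactory bulb Bcl11b (53.5%) and Neurod1 (46.4%) are high as well.

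Tbr1, a T-box factor of deep-layer cortical neurons and of olfactory bulb projection neurons, was best covered in olfactory bulb. Its normalized counts there were 773, 1055 and 1026 at P1, 168, 276 and 186 at P7, and 0, 0 and 25.0 at P14. At P14 all 18 reads of the group came from replicate 3. In cortex the values were 391, 263 and 284 at P1, 76.2, 32.5 and 68.0 at P7, and 29.5, 12.6, 11.4 and 7.79 at P14. All 4 P14 libraries of cortex held Tbr1, with 15 to 78 reads, and the mean was 4.89% of that at P1. In hippocampus the values were 409.9, 502 and 414 at P1, 50.1, 43.8 and 36.9 at P7, and 8.60, 35.3 and 0 at P14.

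Bcl11b, a zinc finger factor of subcerebral projection neurons, is also expressed in neurons of the striatum and in interneurons of the olfactory bulb, so it is not restricted to excitatory cells. In olfactory bulb its normalized counts were 927, 869.6 and 861 at P1, 512, 442 and 466 at P7, then 55.7, 73.1 and 25.0 at P14. The 3 ages did not overlap, and the P14 libraries still held 18 to 53 reads. In cortex the values were 446, 298 and 177 at P1, 78.5, 40.2 and 74.3 at P7, and 5.67, 1.26, 8.51 and 4.15 at P14. In hippocampus they were 106, 192 and 93.4 at P1, 24.2, 28.2 and 55.8 at P7, and 0, 2.20 and 16.1 at P14.

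Fezf2, a zinc finger factor that specifies corticospinal neurons and is also present in early radial progenitors, differed from the other 8 in how much was left. Its normalized counts in cortex were 59.1, 78.3 and 95.2 at P1, 45.0, 38.7 and 42.6 at P7, then 52.6, 23.3, 51.1 and 11.4 at P14. The P14 libraries spanned the P7 range, and the highest of them lay just under the lowest P1 library. Hippocampus gave 343, 383 and 266 at P1, 144, 219 and 159.9 at P7, and 120.4, 45.2 and 172 at P14. Olfactory bulb gave 88.2, 116 and 90.4 at P1, 56.5, 59.3 and 41.5 at P7, then 45.7, 33.1 and 33.3 at P14. The P14 mean was 44.6%, 34.0% and 38.1% of the P1 mean in the 3 regions, while the other 8 members were at 16.3% or less. That highest share was of Neurog2 in cortex, which rests on 9 reads.

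Bhlhe22, a bHLH repressor of postmitotic projection neurons, was measured best in hippocampus and cortex. In hippocampus its normalized counts were 190.2, 229 and 196 at P1, 20.5, 26.9 and 24.6 at P7, then 5.37, 5.51 and 19.7 at P14. The P7 libraries lay close together and did not overlap with those of either neighbouring age. In cortex the values were 125, 99.5 and 91.9 at P1, 20.8, 9.28 and 48.0 at P7, and 2.27, 5.03, 2.52 and 0 at P14. In olfactory bulb it had the lowest level per kilobase at P1, from normalized counts of 12.5, 9.25 and 7.17, and its P14 libraries held 0, 1 and 0 reads.

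Per kilobase of exon, the order of levels differed from region to region. In cortex at P1, Neurod6 (166 ± 31.8 normalized counts per kb, SD, n = 3) and Neurod2 (148 ± 26.4) led with overlapping ranges, and both lay above Tbr1 (57.0 ± 12.4). From Tbr1 down to Bcl11b, Bhlhe22, Neurod1 and Fezf2 (25.4 ± 5.93) each gene overlapped with the next, and Eomes (5.15 ± 1.69) and Neurog2 (2.92 ± 1.14) came last. In hippocampus at P1, Neurod1 (359 ± 16.9) lay above Neurod6 (319 ± 12.8), which lay above Neurod2 (209 ± 66.6), each without overlap. Neurod2 overlapped with Eomes (158 ± 21.7), and Bcl11b (16.1 ± 6.61) was lowest. In olfactory bulb at P1, Neurod1 (192 ± 46.6), Neurod6 (179 ± 28.2), Tbr1 (173 ± 28.2) and Eomes (169 ± 32.3) overlapped in turn and all lay above Bcl11b (109 ± 4.43). At P14 Fezf2 was first in each region, at 11.4 ± 6.73 per kb (n = 4) in cortex, 36.9 ± 20.9 (n = 3) in hippocampus and 12.3 ± 2.37 (n = 3) for olfactory bulb. It overlapped with the next gene in cortex (Tbr1) and hippocampus (Neurod1) and not in olfactory bulb (Bcl11b). The regions come from separately scaled tables, so the levels are set side by side without a test.

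The 9 factors were also set against the 14 pan-neuronal genes, whose members include Dcx, Tubb3 and Map2. The 9 factors were named with these age values known, so their lower share at later ages is a description. Their summed normalized count was 9.77% ± 0.455 (SD, n = 3) of the pan-neuronal sum at P1 in cortex, 3.93% ± 0.632 at P7 and 2.66% ± 1.14 (n = 4) at P14. The hippocampal shares were 18.6% ± 1.01, 9.94% ± 2.51 and 6.80% ± 1.66, and those of olfactory bulb 11.5% ± 1.93, 6.84% ± 2.71 and 1.68% ± 0.263 (n = 3 each). The P1 libraries did not overlap with those of P14 in any region. The 15 genes of the inhibitory neuron lineage, among them the Dlx genes, Gad1 and Gad2, did not have that order in cortex and hippocampus. They summed to 15.3%, 21.4% and 28.9% of the pan-neuronal sum in cortex at P1, P7 and P14, with 9.34%, 19.6% and 20.7% for hippocampus and 31.2%, 40.8% and 27.2% for olfactory bulb. The 25 other genes of the excitatory lineage, whose list includes the astrocyte-expressed Rorb, had means in the opposite order to the 9 factors in each region. Their mean sum was 61.8%, 107% and 351% of the pan-neuronal sum in cortex at the 3 ages, with 32.4%, 101% and 277% for hippocampus and 20.6%, 28.3% and 97.1% for olfactory bulb. These are shares of a falling sum. The pan-neuronal sum in cortex had a mean of 17802 at P1 and 2507 at P14. The 25-gene sum there was also lower at P14 (8785, against 10882), as was the inhibitory sum (724, against 2752). In hippocampus the 25-gene sum was higher at P14 (9023 to 9511 per library) than at P1 (6772 to 8109). In olfactory bulb these ages overlapped (5888 to 6471 and 6413 to 7371). Within the 9-gene sum, the share of Fezf2 went from a median of 4.94% at P1 to 46.9% at P14 in cortex. The hippocampal medians were 8.02% and 60.8%, and those of olfactory bulb 2.62% and 31.6%.

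**Figure D3:**
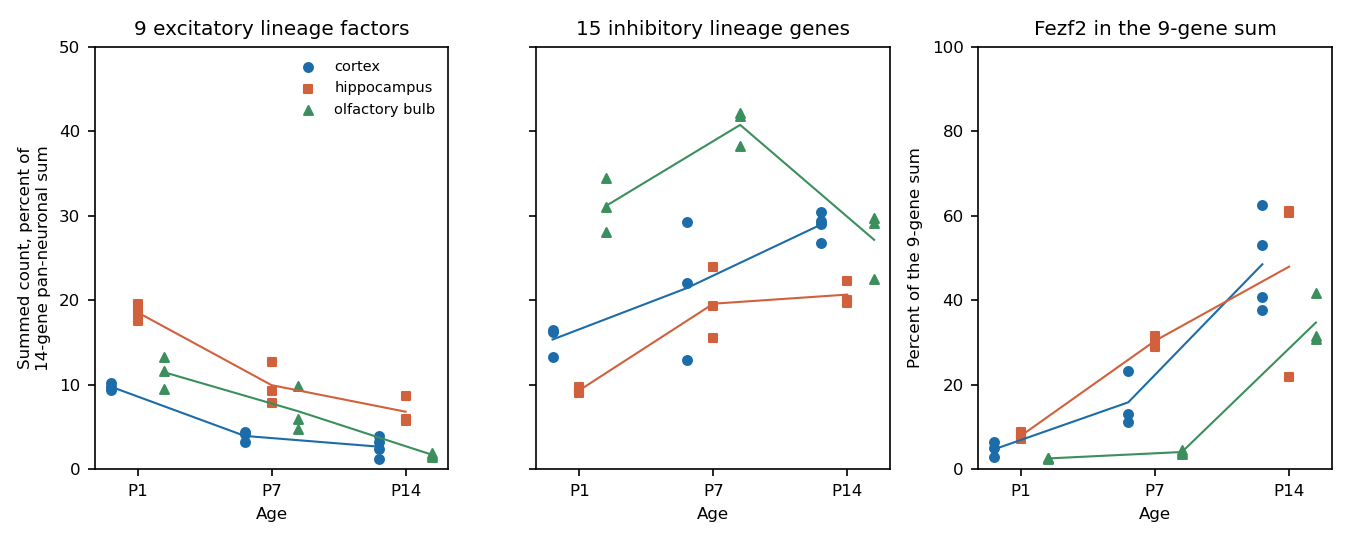
Left and middle, the summed normalized count of the 9 factors and of 15 inhibitory lineage genes as a percent of the summed count of 14 pan-neuronal genes; right, Fezf2 as a percent of the 9-gene sum; points are libraries by age and region, lines join means. The 9 factors have a lower share at P14 than at P1 for every region, while that of the inhibitory genes is higher in cortex and hippocampus and that of Fezf2 is higher in each region. The 25 other excitatory lineage genes, not plotted, went from 61.8% to 351% (cortex), 32.4% to 277% (hippocampus) and 20.6% to 97.1% (olfactory bulb). A higher share can go with a lower summed count, as for the inhibitory genes in cortex (mean 2752 at P1, 724 at P14).

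The wider excitatory program was counted by direction. Its list and those of the next paragraphs were chosen with earlier results of these data known. Their counts and p-values by age are therefore a description and not an independent test. Of 25 further genes of the lineage, 20 (cortex), 24 (hippocampus) and 21 (olfactory bulb) were tested with limma and a Benjamini-Hochberg adjusted p under 0.05 over all genes. From P1 to P14, 10 fell and 4 rose in cortex, 12 fell and 6 rose in hippocampus, and 11 fell and 5 rose for olfactory bulb. Genes entered the test by their mean over the 3 ages. A gene high only at P1 could thus be called only as lower, and a gene high only at P14 only as higher. Of all tested genes 40.3%, 28.5% and 31.4% fell and 24.0%, 21.0% and 24.8% rose. The counts that rose lie near these shares in each region, as does the count that fell in cortex, and nothing is read from them. In cortex the split over all genes moved with the scaling, from 4765 lower and 2843 higher to 3611 lower and 3806 higher under TMM. It moved in the other regions with edgeR. Olfactory bulb went from 3604 lower and 2845 higher to 3139 and 3260, and hippocampus from 3302 and 2430 to 2781 and 2688. The list's median log2 difference was -0.63, -0.92 and -0.91. Among those that fell in each of the 3 regions were Bcl11a, Insm1 and Slc17a6, and Camk2a, Rorb and Tle4 rose in each.

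Rorb, a nuclear receptor known both as a cortical layer 4 marker and as an astrocyte gene, rose in cortex from a normalized count of 1111 ± 29.8 (SD, n = 3) to 3909 ± 140 (n = 4), a log2 difference of 1.81 (SE 0.0901, limma adjusted p = 1.71e-09). Mef2c, an activity-linked factor of neurons and microglia, fell there from 1934 ± 370 to 159 ± 40.4 (log2 difference -3.61, SE 0.311, limma adjusted p = 3.10e-07). In hippocampus Zbtb18, a repressor needed for pyramidal neuron formation, fell from 1587 ± 124 to 293 ± 56.2 (log2 difference -2.45, SE 0.171, limma adjusted p = 4.61e-07). In olfactory bulb Bcl11a, the paralogue of Bcl11b, fell from 1386 ± 188 to 174 ± 120 (log2 difference -3.24, SE 0.431, limma adjusted p = 8.45e-05). Cux1 differed by region, with log2 differences of -0.82 in cortex (limma adjusted p = 2.68e-06), 0.55 in hippocampus (0.0117) and -0.26 in olfactory bulb (0.0796); the difference between regions was not tested.

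The bHLH cofactors and antagonists were counted separately. Of the 3 E proteins that pair with Neurog and Neurod factors, Tcf12 fell in each region and Tcf3 in cortex and olfactory bulb. Tcf4 fell in hippocampus (log2 difference -0.49, limma adjusted p = 0.00749). In cortex Tcf4 was called higher (0.28, limma adjusted p = 0.00677), but its sign turned to -0.60 under quantile normalization. Of 8 antagonists and repressors, which include the Id proteins that sequester E proteins and the Hes and Hey repressors, 5, 4 and 7 rose in cortex, hippocampus and olfactory bulb in turn, with 0 lower. Of all tested genes 24.0%, 21.0% and 24.8% were called higher in the same order of regions. Hey1, Id2, Id3 and Id4 rose in each region. Id2 went from 213 ± 26.7 to 755 ± 111 in cortex (limma adjusted p = 6.51e-08), and Hey1 from 34.6 ± 9.17 to 337 ± 46.0 in olfactory bulb (limma adjusted p = 3.28e-06).

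Lists for other cells were counted in the same way. Of all tested genes 40.3% (cortex), 28.5% (hippocampus) and 31.4% (olfactory bulb) were called lower, and 24.0%, 21.0% and 24.8% higher. Pan-neuronal genes fell for 13 of 14 (cortex), 12 of 14 (hippocampus) and 12 of 14 (olfactory bulb), and inhibitory lineage genes for 12 of 12, 9 of 12 and 13 of 13 tested. Dcx, a microtubule protein of young neurons, fell in cortex from 4639 ± 1262 to 55.3 ± 9.47 (log2 difference -6.35, limma adjusted p = 1.77e-11). Astrocyte genes rose for 11 of 12 in cortex and 12 of 12 in the other regions, and genes of dividing progenitors fell for 7 of 7, 7 of 8 and 3 of 7, with Vim higher in olfactory bulb. Mature oligodendrocyte genes rose for 7 of 8, 4 of 4 and 5 of 5 tested, and microglial genes for 8 of 8, 4 of 5 and 4 of 5. Oligodendrocyte precursor genes rose for 2, 2 and 4 of 6 and fell for 2, 1 and 0. Endothelial genes did not pass the test in cortex (0 of 6), fell for 2 of 6 in hippocampus and rose for 6 of 6 in olfactory bulb. The precursor counts in cortex and hippocampus and the endothelial count in hippocampus lie near the shares over all genes. Nothing is read from them. Of the ependymal and choroid plexus genes tested, 1 of 2 fell in cortex (Foxj1), 2 of 3 rose in hippocampus and 1 of 1 in olfactory bulb. The part of these cells in the members' values was not tested.

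The genes most like the members in pattern were found by Pearson r between a gene's log2(value + 1) and the mean of the 9 members over the libraries of a table. In cortex these were Srsf11 (r = 0.992), Smarcc1 (0.990) and Aff2 (0.990), over 10 libraries and 5156 genes with a mean of at least 100. In hippocampus they were Maged1 (0.996), Pgap1 (0.992) and Mturn (0.991), over 9 libraries and 4813 genes. In olfactory bulb they were Nbea (0.987), Syt14 (0.986) and, highest, Yme1l1 (0.989), over 9 libraries and 4743 genes. The libraries differ above all in age, so the correlations are a description.

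At P28 no tested member differed between cKO and control libraries past the threshold. The targeted gene Gabbr1 gave 1746, 1930.1, 1159 and 927 in the cortical controls and 89.8, 96.5, 134 and 211 in the cKO libraries, without overlap (log2 difference -3.45, SE 0.290, limma adjusted p = 4.395e-05). In hippocampus (-1.84, SE 0.390, limma adjusted p = 0.936) and olfactory bulb (-1.48, SE 0.333, limma adjusted p = 0.877) its libraries did not overlap either, but the adjusted p missed the threshold. Without cKO replicate 2 the hippocampal difference was -2.10 (limma adjusted p = 0.0296). A mean of 10 was reached by 1 member (Fezf2) in cortex, by 2 (Fezf2, Neurod6) in hippocampus and by 3 (Fezf2, Eomes, Bcl11b) in olfactory bulb, and these were tested. Neurod6 reached it through the cKO libraries (mean 12.1, against 6.70 in controls), so nothing is read from the direction of its difference. Tbr1 in hippocampus, with a mean of 11.5 in controls and 8.50 in cKO libraries, was left out. None passed an adjusted p under 0.05 with limma, edgeR or DESeq2, and none had an unadjusted limma p under 0.05. Over all tested genes limma called 0.00982% in cortex, and 0% and 0% in hippocampus and olfactory bulb, where 296 and 349 genes had an unadjusted p under 0.05. With edgeR 1, 0 and 0 genes were called, and with DESeq2 1, 1 and 22, the 22 of olfactory bulb all lower in cKO. No gene of the lists above passed with limma at P28.

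Fezf2 had the highest level per kilobase of the members in each P28 group. In cortex its normalized counts were 47.5, 56.0, 81.1 and 78.8 in controls and 109, 81.8, 43.2 and 55.6 in cKO libraries. The cKO values reached both below and above the controls, and the log2 difference was 0.08 (SE 0.342, 95% interval -0.65 to 0.81, limma adjusted p = 1.00). In hippocampus the controls gave 86.8 and 233 and the cKO libraries 287, 566, 121 and 119. The log2 difference there was 0.62 (SE 0.660, 95% interval -0.86 to 2.10, limma adjusted p = 0.936). The highest value belongs to cKO replicate 2, the library with little Rn45s, and without it the difference was 0.17. In olfactory bulb the controls gave 28.7, 182 and 88.9 and the cKO libraries 169, 79.6 and 52.9. The difference was 0.20 (SE 0.637, 95% interval -1.21 to 1.61, limma adjusted p = 0.952), and without control replicate 2, the other library with little Rn45s, it was 0.81. These intervals leave room for differences of more than 1 log2 unit in hippocampus and olfactory bulb.

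Of the other members tested, Neurod6 in hippocampus gave 12.5 and 0.890 in controls and 25.2, 0, 7.98 and 15.4 in cKO libraries (log2 difference 0.64, SE 1.61, 95% interval -2.97 to 4.25, limma adjusted p = 0.958). Each group held a library with 0 or 1 read. The value of 0 is that of cKO replicate 2, and without it the difference was 1.63. Eomes in olfactory bulb gave 4.59, 20.4 and 81.4 in controls and 12.03, 7.96 and 72.4 in cKO libraries (-0.07, SE 1.05, 95% interval -2.39 to 2.26, limma adjusted p = 0.990). Replicate 3 was the high library in both groups, and the others lay far below. Bcl11b in olfactory bulb gave 18.4, 107 and 26.5 in controls and 18.9, 31.9 and 27.5 in cKO libraries (-0.54, SE 0.663, 95% interval -2.01 to 0.92, limma adjusted p = 0.889). Its highest value was again that of control replicate 2, without which the difference was 0.20.

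**Figure D4:**
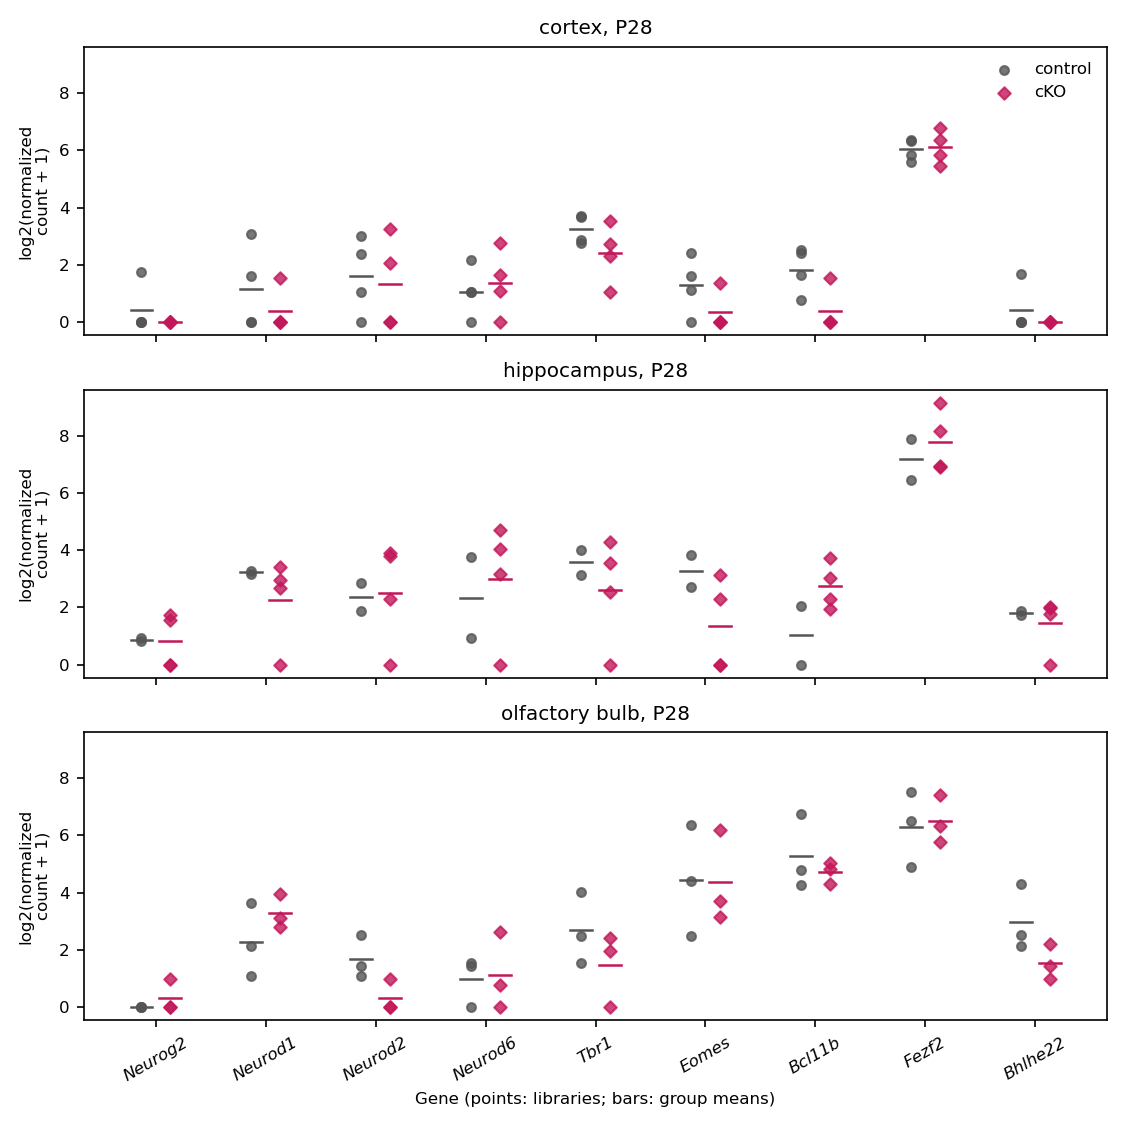
Level of each of the 9 factors at P28 as log2(normalized count + 1) in control (grey circles) and cKO (magenta diamonds) libraries of cortex, hippocampus and olfactory bulb; short bars are group means. Control and cKO points overlap or tie for each gene except Neurod2 in olfactory bulb, where counts are between 0 and 5 reads.

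The members left out of the test held 0 to 23 reads per library at P28. In cortex, Tbr1 gave 6.34, 5.84, 12.1 and 11.8 in controls and 5.61, 1.05, 3.996 and 10.6 in cKO libraries, and Neurog2 and Bhlhe22 had no read in any of the 4 cKO libraries, which allows up to 3 reads per library. In hippocampus Neurod1 gave 8.60 and 8.01 in controls and 6.78, 0, 9.58 and 5.39 in cKO libraries, and Bcl11b gave 3.13 and 0 against 3.87, 2.89, 7.19 and 12.3. Neurod1 in olfactory bulb gave 1.15, 3.40 and 11.4 in controls and 7.74, 5.97 and 14.5 in cKO libraries. Neurod2 was the 1 member whose groups did not overlap, in olfactory bulb, with 1, 1 and 5 reads in controls and 0, 1 and 0 in cKO libraries. It lay under the level at which genes were tested. Of all tested genes there, 4.71% had cKO libraries below all controls and 5.30% above; these shares were 1.03% and 0.864% in cortex and 7.92% and 7.08% in hippocampus, where no member was so separated. Relative to the pan-neuronal sum, the 9 members made up a mean of 4.06% in control and 3.91% in cKO libraries of cortex, with 8.77% and 11.9% for hippocampus and 4.74% and 5.78% for olfactory bulb. The ranges overlapped in each region, and the highest hippocampal share, 16.1%, was that of cKO replicate 2. These sums rest largely on Fezf2, which was 99.5% of the 9-gene sum in that library. Its median part was 75.0% in control and 88.6% in cKO libraries of cortex. The medians were 74.6% and 75.5% for hippocampus and 46.3% and 62.0% for olfactory bulb.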

How the data were processed

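The authors deposited 6 tables of gene-level normalized signal, each for 1 region and either P1 to P14 or P28. Every value was a whole multiple of 1 step per library (within 0.02 of a read), so the deposited signal is a gene read count divided by a size factor, and reads were recovered from it, although a step near 1 makes this check weak in cKO replicate 2 of the P28 olfactory bulb. FastQC, MultiQC, STAR 2.5.0a, DESeq2 1.20.0 and mm10 are named in the submitters' processing notes. The kit was Trio RNA-seq with picogram to nanogram input, per the labels' protocols. The counting program, strand and annotation are not given in the sources used here. Replicates were numbered in accession order.

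The members and gene lists were chosen with earlier results of these data known. Genes with a mean of at least 10 over a table were tested on log2(value + 1), which understates changes of low genes, with limma 3.58.1 (eBayes with trend, R 4.3.3) and Benjamini-Hochberg adjustment over all genes. Tables were scaled separately and not tested against each other. The recovered reads, 100% of which were whole, were tested with edgeR 4.0.16 (P14 against P1: 7408 genes called in cortex, 5469 in hippocampus, 6399 in olfactory bulb) and DESeq2 1.42.0. The limma, edgeR and DESeq2 fits at their main settings were run on simulated counts with known changes and the same dispersion for every gene. The other alternative settings were not simulated. Named genes are the 9 members, Gabbr1, up to 4 genes of each list with the highest mean, and the 3 genes per table most like the members; other list genes named by direction were called in every region. The result of 1 list gene is not reported here by name. Sequences are from RefSeq (GRCm38.p6), gene positions and exon lengths from GENCODE M21. Where a count of 0 is given, 3 reads is the limit it allows, for counting error only. Alternatives were pseudocounts of 0.1 and 8, no filter and a minimum mean of 100, TMM and quantile scaling, both count tests, label style as a covariate in cortex at P28, and each replicate left out.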

Additional observations from a re-analysis of the deposited data

Results flagged for a closer look

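Of 34 pairs of a member and a group of 4 libraries tested for a single library far from the rest, 6 were marked. In each of the 6, 1 library had 2 to 4 reads of a member and the other 3 had none, a case that is marked whatever the value, so the rate of about 1 in 20 that chance gives for continuous values does not apply. In cortex at P28 these were Neurog2 in control replicate 2 (normalized count 2.335), Bhlhe22 in control replicate 3 (2.192), Neurod1 in cKO replicate 4 (1.919), Bcl11b in cKO replicate 4 (1.919) and Eomes in cKO replicate 3 (1.598). In cortex at P14 it was Neurod1 in replicate 2 (2.516).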

How the results depend on the processing

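The median difference of the 9 members, P14 minus P1, kept its sign under each alternative run. In cortex (-5.19) it was -6.12 with a pseudocount of 0.1, -3.45 with 8 and -4.69 with quantile normalization, and -5.38 to -4.68 with 1 replicate left out. In hippocampus (-5.04) it was -6.01 with a pseudocount of 0.1 and -5.54 to -4.60 with 1 replicate left out, and in olfactory bulb (-7.12) -8.97 and -4.99 with pseudocounts of 0.1 and 8 and -8.04 to -5.97. The other excitatory genes past the threshold numbered 9 in cortex and 11 in hippocampus at a minimum mean of 100, where only 12 and 15 were tested; with 1 replicate left out they numbered 14 to 15, 15 to 18 and 12 to 18. At P28, 0 members passed under each alternative that gave a value; at a minimum mean of 100 no member was left to test in cortex. Single P28 differences changed sign when 1 library was left out, none past the threshold: the Fezf2 ranges were -0.14 to 0.30 (cortex), -0.083 to 1.33 (hippocampus) and -0.50 to 0.81 (olfactory bulb), Neurod6 in hippocampus from -0.78 to 1.63, and in olfactory bulb Eomes from -1.04 to 0.90 and Bcl11b from -1.04 to 0.20. Gabbr1 passed the threshold in hippocampus without cKO replicate 2 (limma adjusted p = 0.0296), and in olfactory bulb with DESeq2 (adjusted p = 0.0257). No paired analysis was possible because replicates carry only numbers from accession order, which pair no libraries. Read number limits the members most where a group held 3 reads or fewer in each library, as for 5 members in olfactory bulb at P14.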
